A study of Mus musculus with 12 samples.

Results

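A list of 43 genes of the endoplasmic reticulum (ER) was drawn up by their roles in protein folding, translocation, degradation and stress signalling, and 40 of them were measured among the 30063 named genes on these arrays. A gene counted as measured where a probe set carried its symbol and no other. Pdia4, Manf and Sec61g were left out because their probe sets carry several symbols. The 40 comprised 12 of 14 folding genes, 13 of 14 genes of the translocation channel and signal peptidase, all 7 degradation genes and all 8 stress sensors and transcription factors. Total RNA of week 10 seminal vesicles, from C57BL/6 males, was measured on 12 Affymetrix arrays, 3 in each of 4 groups. Wild-type (WT) and aERKO pups had been injected under the skin on days 1 to 5 after birth, with corn oil alone in the vehicle groups or with DES in corn oil at 2 µg per pup per day in the DES groups. DES is diethylstilbestrol, a synthetic estrogen, and aERKO is the usual name for mice that lack estrogen receptor alpha, the product of Esr1. How the aERKO allele was made is not given in the sources used here. The sources used here do not state whether each array stands for another animal, so every p-value here refers to the spread among the arrays at hand, and that spread may be technical.

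The ER is where secreted and membrane proteins enter the secretory pathway. The SEC61 channel threads the growing chain into the lumen, signal peptidase removes its signal peptide, chaperones such as BiP (Hspa5) and protein disulfide isomerases fold it, and misfolded chains are drawn back out by the Derlin and HRD1 complexes and degraded. When unfolded protein accumulates, the sensors IRE1 (Ern1), PERK (Eif2ak3) and ATF6 start the unfolded protein response, in which XBP1, ATF4 and ATF6 activate genes of folding and degradation. The seminal vesicle epithelium makes large amounts of secreted protein, so it carries an abundant rough ER.

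Several of these genes are known targets of that response through the ER stress element, which reads CCAAT, then 9 bases, then CCACG. The element was searched on both strands of the RefSeq promoter windows (GRCm38.p6, 250 bases before to 50 bases after each annotated start), which were given for 32 of the 40 genes. It was found in 9 of those 32 genes (28.1%) and in 37 of all 27025 genes with a window (0.137%). The holders were 7 of 11 folding genes and 2 of 6 degradation genes, with 0 of 9 translocation genes and 0 of 6 sensors. The shorter CCACG, which lies within the element, was in 25 of the 32 genes (78.1%) against 35.5% of all genes, and TGACGTGG was in 0 of 32 against 0.714%. A match of letters is not evidence of binding, and no match says only that the letters are not in the window. All 10 matches are shown 5′ to 3′ on the strand of the gene with 20 bases on either side, because they mark the members that share this sequence. Capitals mark the CCAAT and CCACG parts, or ATTGG and CGTGG where the element lies on the opposite strand.
Hspa5 (chr2:34772005-34772063, plus strand): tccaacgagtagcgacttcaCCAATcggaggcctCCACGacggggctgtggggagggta
Hsp90b1, farther from the start (chr10:86705618-86705676, minus strand): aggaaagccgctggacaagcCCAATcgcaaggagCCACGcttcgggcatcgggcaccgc
Hsp90b1, nearer to the start (chr10:86705513-86705571, minus strand): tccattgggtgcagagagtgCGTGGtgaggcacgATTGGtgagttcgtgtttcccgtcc
Pdia6 (chr12:17266471-17266529, plus strand): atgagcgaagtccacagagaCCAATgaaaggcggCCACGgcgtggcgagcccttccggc
Calr (chr8:84847055-84847113, minus strand): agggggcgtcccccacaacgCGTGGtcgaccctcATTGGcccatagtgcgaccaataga
Canx (chr11:50325780-50325838, minus strand): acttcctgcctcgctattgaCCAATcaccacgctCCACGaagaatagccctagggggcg
Dnajc3 (chr14:118937807-118937865, plus strand): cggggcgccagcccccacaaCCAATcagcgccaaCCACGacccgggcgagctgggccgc
Creld2 (chr15:88819500-88819558, plus strand): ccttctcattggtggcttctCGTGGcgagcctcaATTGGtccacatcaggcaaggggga
Derl3 (chr10:75893222-75893280, plus strand): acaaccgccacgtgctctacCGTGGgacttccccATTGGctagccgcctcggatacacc
Syvn1 (chr19:6046512-6046570, plus strand): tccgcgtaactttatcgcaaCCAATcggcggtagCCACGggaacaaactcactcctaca
All 10 lay before the annotated start, beginning between 44 bases (Syvn1) and 212 bases (Hsp90b1) ahead of it.

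Values are the deposited log2 expression, on which a difference of 1 is a doubling, and levels of different genes cannot be set against each other on these arrays. Each array's median over all probe sets lay between 5.95 and 6.14. A gene was called changed where the Benjamini-Hochberg adjusted p from limma, taken over the 20102 genes tested, was below 0.05, and all 40 ER genes were among those tested. Esr1 was between 7.55 and 7.80 on the 6 WT arrays and between 6.81 and 7.09 on the 6 aERKO arrays, and it was lower in aERKO by 0.76 ± 0.08 (SE) with vehicle (limma adjusted p = 0.00587). Marker genes of the seminal vesicle, the labelled tissue, averaged 13.22 to 13.35 on the vehicle arrays. Arrays of 1 group correlated between 0.982 and 0.996, with the lowest values among the WT_DES arrays. The labels name no batch or scan date. The 3 WT_DES arrays stood apart from one another in these genes. The median of the 40 genes on WT_DES arrays 1, 2 and 3 was 10.19, 9.87 and 9.71, against 10.45, 10.45 and 10.25 on the WT_vehicle arrays.

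In WT seminal vesicles, 27 of the 40 ER genes fell after neonatal DES (67.5%), 1 rose (Xbp1) and 12 were not called, on the values as deposited. The count of falls depended on the scaling and on single arrays. It was 15 with the arrays set to the same median of all probe sets, 2 with hybridization-control scaling, 16 without array 2 of WT_vehicle and 18 without array 3 of WT_DES. Over all genes tested, 23.3% fell and 20.7% rose as deposited. The falls over all 20102 genes numbered 4677 as deposited, 2673 with the all-probe-set median and 350 with hybridization-control scaling. They numbered 3104 without array 2 of WT_vehicle and 4871 without array 3 of WT_DES. The median difference of the 40 was -0.36, against -0.05 over all genes tested, and 36 of 40 differences were below 0. The 27 genes that fell ranged from Derl3, 2.91-fold lower, to Calr, 1.19-fold lower. For 24 of the 40 genes (60%) every WT_DES array lay below every WT_vehicle array, as did 35.1% of all genes, and for no ER gene did every WT_DES array lie above, as did 25.8% of all genes. A comparison of 3 arrays with 3 cannot give an exact permutation p below 0.1, so for single genes the calls rest on the limma fit.

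**Figure D1:**
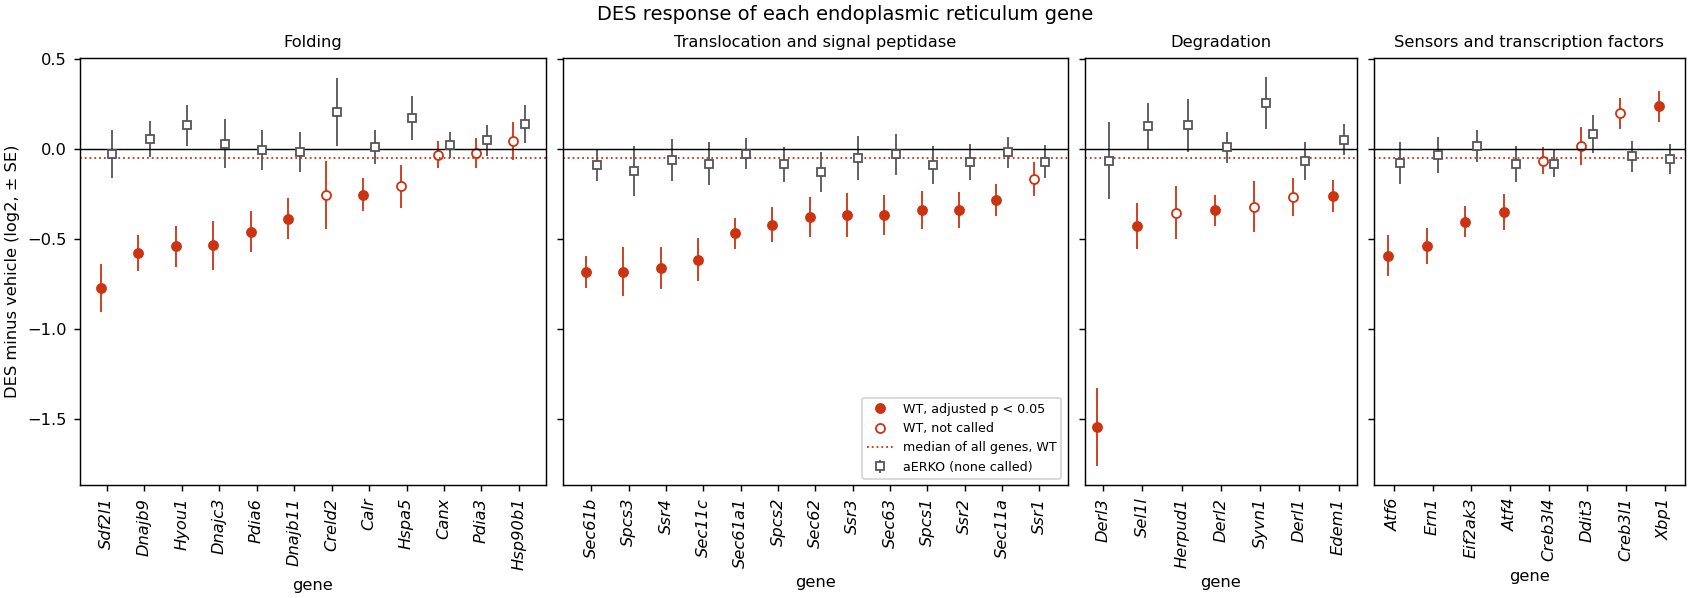
Difference between DES and vehicle in log2 expression (± SE from limma, 3 arrays a group) for each of the 40 ER genes, by role. Red circles are WT (filled where called) and grey squares are aERKO, where 0 were called. In WT 27 genes lie below 0 and called, with Derl3 lowest at -1.54 and Xbp1 highest at 0.24. Values are as deposited.

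Of the 12 folding genes, 7 fell and 5 were not called, with a median difference of -0.32 (0.04 with hybridization-control scaling). Over all genes tested, 23.3% fell and 20.7% rose as deposited, with a median of -0.05 (0.31 with hybridization-control scaling). The co-chaperone Sdf2l1, a partner of BiP in the lumen, was at 10.95, 11.06 and 10.83 in WT_vehicle and at 10.56, 9.94 and 10.03 in WT_DES. No WT_DES array reached the lowest WT_vehicle array, and the difference was -0.77 ± 0.13 (SE, limma adjusted p = 0.00057). The J-domain co-chaperone Dnajb9, a brake on IRE1, averaged 11.34 ± 0.13 (SD, n = 3) with vehicle and 10.76 ± 0.22 with DES. Its groups did not overlap, and it fell by 0.58 ± 0.10 (limma adjusted p = 0.000626). Hyou1, the large chaperone that exchanges nucleotide on BiP, was at 10.58, 10.53 and 10.24 with vehicle and at 10.18, 9.78 and 9.76 with DES. It fell by 0.54 ± 0.12 (limma adjusted p = 0.00261), although the gap between the nearest arrays was small. Dnajc3 (-0.53), Pdia6 (-0.46), Dnajb11 (-0.39) and Calr (-0.25) were the others that fell. Dnajc3 and Dnajb11 are further J-domain co-chaperones of BiP, Pdia6 is a disulfide isomerase and Calr is the lectin chaperone calreticulin.

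Several classical ER chaperones were not among those called. Hspa5, which encodes BiP, was at 11.64, 11.67 and 11.37 in WT_vehicle and at 11.61, 11.38 and 11.07 in WT_DES. The groups overlapped, with arrays 1 and 2 of WT_DES above the lowest vehicle array, and the difference of -0.21 had a 95% interval of -0.47 to 0.05 (limma adjusted p = 0.174). Hsp90b1, the ER form of HSP90 (GRP94), was at 12.08, 12.02 and 11.77 with vehicle and at 12.15, 12.03 and 11.81 with DES. Its difference was 0.04 with an interval of -0.19 to 0.27. The disulfide isomerase Pdia3 and the lectin chaperone Canx (calnexin), which handle glycoproteins together with Calr, differed by -0.02 (-0.21 to 0.16) and -0.03 (-0.19 to 0.13). Creld2, a stress-induced secreted isomerase-like gene, differed by -0.25 with a wide interval of -0.66 to 0.15. A missed threshold does not show that these genes were unaffected. Of the 9 genes with the ER stress element, 4 fell in WT and 5 were not called, with a median of -0.25. Of the 23 genes with a window and no element, 17 fell, 1 rose and 5 were not called, with a median of -0.37. Over all genes tested, 23.3% fell and 20.7% rose. The 2 sets also differed in role, since 7 of 11 folding genes with a window held the element and 0 of 9 translocation genes did. Whether the element has a part in the response was not tested.

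Translocation and signal peptidase genes were the class with the highest share of falls, 12 of 13, and the exception was Ssr1 (-0.17, limma adjusted p = 0.155). The share of falls over all genes tested was 23.3%. The class median was -0.38, and -0.02 with hybridization-control scaling, under which 0 of the 13 were called. That scaling called 350 of all 20102 genes lower and put the median of all genes at 0.31, against -0.05 as deposited. Sec61b, the small beta subunit of the channel, was at 8.27, 8.39 and 8.26 in WT_vehicle and at 7.78, 7.51 and 7.57 in WT_DES. The groups were clearly apart and the fall of 0.68 ± 0.09 had the smallest adjusted p of the 40 genes (limma, 6.7e-05). Sec61a1, the pore subunit, was at 10.24, 10.34 and 10.21 with vehicle and at 9.94, 9.80 and 9.63 with DES, a fall of 0.47 ± 0.09 (limma adjusted p = 0.000956). Sec62 (-0.38) and Sec63 (-0.37), which assist the channel in post-translational import, fell as well.

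Of the 4 genes of the translocon-associated TRAP complex 3 fell. Ssr4, its delta subunit, was at 9.71, 9.81 and 9.70 with vehicle and at 9.35, 8.91 and 8.97 with DES, and the difference was -0.66 ± 0.12 (limma adjusted p = 0.000679). Every DES array was below every vehicle array for Ssr4. Ssr2 and Ssr3 fell by 0.34 and 0.37. All 5 signal peptidase genes fell. Spcs3 was at 11.09, 11.20 and 10.90 with vehicle and at 10.68, 10.23 and 10.23 with DES, a fall of 0.68 ± 0.14 (limma adjusted p = 0.00193). The 2 genes for catalytic subunits differed in size of fall, with Sec11c at -0.62 ± 0.12 and Sec11a at -0.28 ± 0.09, a contrast that was not tested. Spcs2 and Spcs1, the accessory subunits, were at -0.42 and -0.34.

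**Figure D2:**
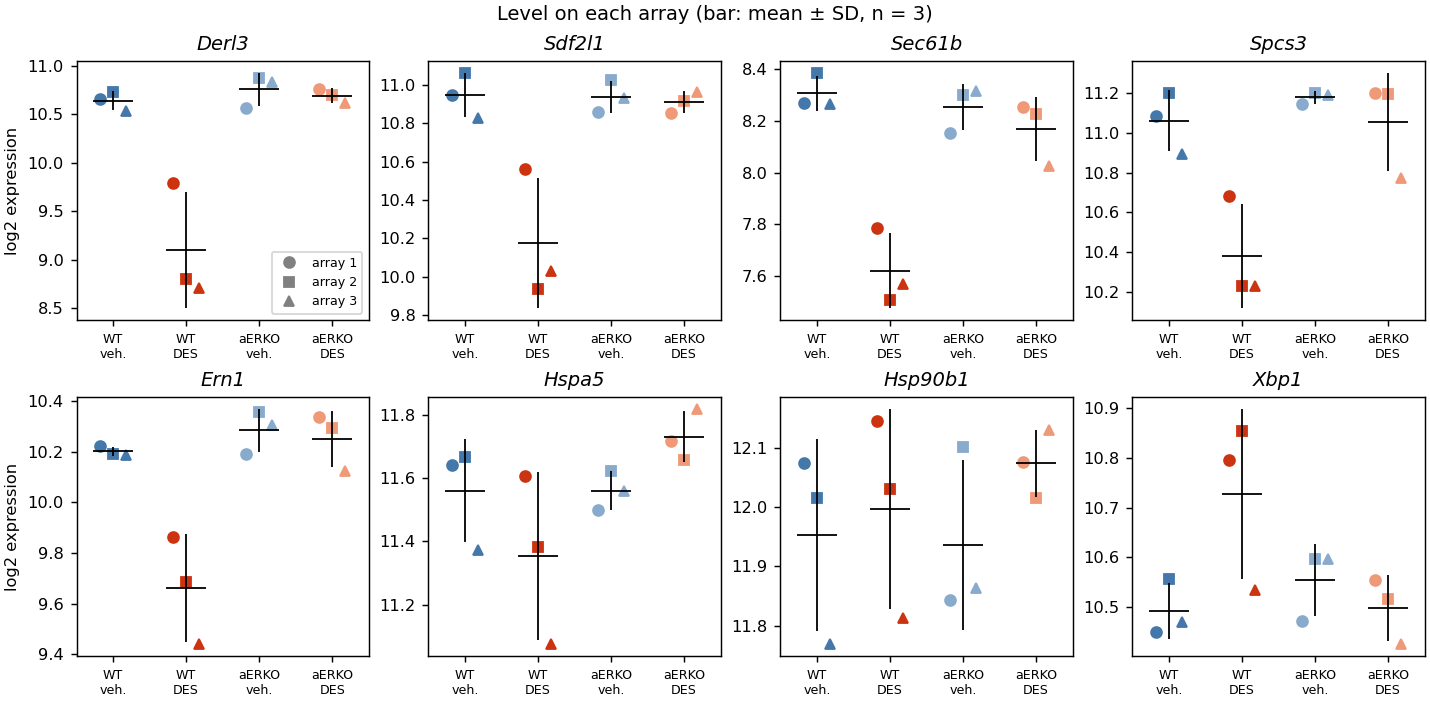
Log2 expression on each of the 12 arrays for 8 ER genes (points, shaped by array number, with the group mean ± SD, n = 3), each panel on its own axis that does not start at 0. The WT_DES arrays of Derl3, Sdf2l1, Sec61b, Spcs3 and Ern1 lie below the other 3 groups as deposited, while those of Hspa5, Hsp90b1 and Xbp1 overlap WT_vehicle.

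Among the 7 genes of ER-associated degradation 4 fell and 3 were not called, with a median of -0.34 (0.02 with hybridization-control scaling). Of all genes tested 23.3% fell as deposited, with a median of -0.05 (0.31 with hybridization-control scaling). Derl3, a Derlin family member that serves retrotranslocation and is abundant in secretory cells, had the largest difference of the 40 genes. It was at 10.66, 10.73 and 10.53 in WT_vehicle and at 9.79, 8.80 and 8.71 in WT_DES. The 3 DES arrays were spread over more than 1 log2 unit, all of them below the vehicle arrays, and the difference was -1.54 ± 0.21 (limma adjusted p = 0.000116). Its paralogs moved less, with Derl2 at -0.34 (limma adjusted p = 0.00761) and Derl1 at -0.27 (limma adjusted p = 0.0573). The difference between paralogs was not tested. Sel1l, the adaptor of the HRD1 ubiquitin ligase, was at 10.47, 10.46 and 10.25 with vehicle and at 10.28, 9.98 and 9.64 with DES. These groups overlapped at their edges and the fall was 0.43 ± 0.13 (limma adjusted p = 0.017). Syvn1, which encodes HRD1 itself, was at -0.32 (limma adjusted p = 0.0842), and Herpud1, a stress-induced member of the same complex, was at -0.35 (limma adjusted p = 0.0695). Edem1, which delivers glycoproteins for degradation, fell by 0.26.

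The 8 sensors and transcription factors did not move one way, with 4 lower, 1 higher and 3 not called, and a median of -0.21 (0.15 with hybridization-control scaling). Of all genes tested 23.3% were lower and 20.7% higher as deposited, with a median of -0.05 (0.31 with hybridization-control scaling). The genes of all 3 stress sensors fell. Atf6 was at 10.29, 10.23 and 10.14 in WT_vehicle and at 9.84, 9.65 and 9.40 in WT_DES, a difference of -0.59 ± 0.12 (limma adjusted p = 0.00148). Ern1, which encodes IRE1, was at 10.22, 10.19 and 10.19 with vehicle and at 9.87, 9.69 and 9.44 with DES, a difference of -0.54 ± 0.10 (limma adjusted p = 0.000907). Eif2ak3, which encodes PERK, was at 9.04, 9.0045 and 8.91 with vehicle and at 8.71, 8.61 and 8.42 with DES, a difference of -0.40 ± 0.09 (limma adjusted p = 0.00302). None of these 3 genes had overlapping groups. Atf4, the transcription factor translated when PERK is active, fell by 0.35 ± 0.10 (limma adjusted p = 0.0143).

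Xbp1 was the exception in direction. This transcription factor, whose messenger is spliced by IRE1, was at 10.45, 10.56 and 10.47 in WT_vehicle and at 10.80, 10.85 and 10.53 in WT_DES. Array 3 of WT_DES lay among the vehicle values, and the rise of 0.24 ± 0.08 (limma adjusted p = 0.039) passed under 3 of the 7 scalings and with 6 of the 12 arrays left out in turn. With quantile normalization it was 0.04. The spliced form is not separated by these values. Creb3l1, a membrane-bound transcription factor related to ATF6, was at 0.20 (limma adjusted p = 0.0752), and Creb3l4 and Ddit3 (CHOP, an effector of prolonged stress) were at -0.07 and 0.02. Ddit3 had 2 probe sets, with differences of 0.02 and -0.04.

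The WT_DES arrays carried these differences to unequal degrees. Set against the WT_vehicle mean, the median ER gene was at -0.18 on array 1, -0.36 on array 2 and -0.59 on array 3. The medians over all genes tested were nearly level, at -0.04, -0.05 and -0.04. Array 1 held the highest WT_DES value for 35 of the 40 genes, a count for which no share over all genes was computed. Array 3 held the lowest for 36 and array 1 for 1, against 41.2% and 22.8% of all genes. In WT_vehicle, too, array 3 was the lowest for 36 of the 40 genes, against 34.9% of all genes. The number of ER genes that fell was 31 without array 1 of WT_DES, against 18 without array 3. Over all genes tested, 4049 fell without array 1 and 4871 without array 3.

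**Figure D3:**
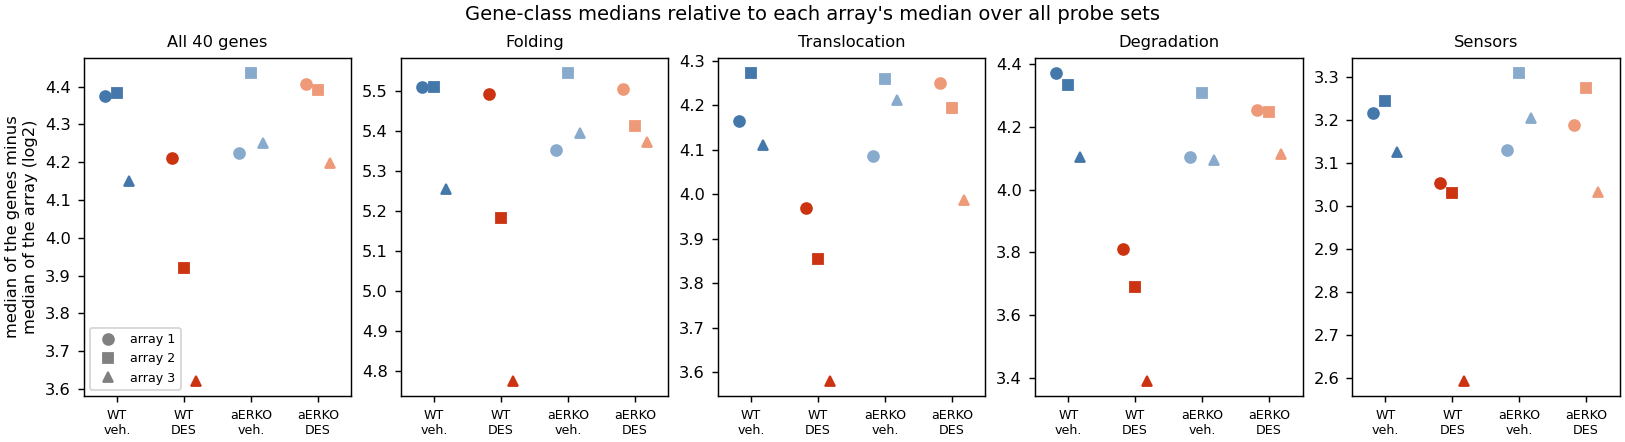
Median of the ER genes on each array minus that array's median over all probe sets (log2), for all 40 genes and for each role, with panels on their own axes that do not start at 0. Points are arrays, shaped by array number. For all 40 genes the WT_DES arrays are at 4.21, 3.92 and 3.62 and the WT_vehicle arrays at 4.37, 4.38 and 4.15, so array 1 of WT_DES lies among the vehicle arrays on this scale.

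In aERKO seminal vesicles DES changed none of the 40 genes past the threshold of limma, and 0 had an unadjusted p below 0.05. Of the 20102 genes tested, 0% were called in either direction and 264 had an unadjusted p below 0.05. The differences of the 40 genes ran from -0.13 (Sec62) to 0.25 (Syvn1), with a median of -0.03 against -0.01 over all genes. Derl3 was at 10.56, 10.88 and 10.83 in aERKO_vehicle and at 10.77, 10.70 and 10.62 in aERKO_DES, which overlap. Its difference was -0.06 with a 95% interval of -0.53 to 0.40, an interval that excludes the -1.54 measured in WT. Hspa5 was the single gene whose groups did not overlap, at 11.50, 11.62 and 11.56 with vehicle and at 11.72, 11.66 and 11.82 with DES, where 1.56% of all genes were higher in this way and 4.56% lower.

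The difference between the DES responses of WT and aERKO was tested directly. It was below 0 and called for 12 of the 40 genes and above 0 and called for 0, against 9.16% and 14.1% of all genes tested. By limma, 23 of the 40 had an unadjusted p below 0.05, as did 7842 of all 20102 genes tested. The 12 included 3 folding genes (Sdf2l1, Dnajb9 and Hyou1), 4 translocation and signal peptidase genes (Sec61a1, Sec61b, Ssr4 and Sec11c), 2 degradation genes (Derl3 and Sel1l) and the 3 stress sensors (Atf6, Ern1 and Eif2ak3). The largest was Derl3 at -1.48 ± 0.30 (limma adjusted p = 0.00431), and the median of all 40 was -0.36 against -0.03 over all genes. Derl3 was called in this comparison under all 7 scalings and with each of the 12 arrays left out, and Sdf2l1, Dnajb9, Hyou1 and Sec61b under 6 scalings and with each array left out. The other calls were lost more often. With 1 of the 12 arrays left out in turn, Sel1l and Atf6 passed in 3 fits, Sec11c in 4, Eif2ak3 in 6, Sec61a1 in 9, Ssr4 in 10 and Ern1 in 11. The count of 12 became 31 with quantile normalization and 1 with hybridization-control scaling. Over all 20102 genes tested, lower calls numbered 1841 as deposited, 4280 with quantile normalization and 133 with hybridization-control scaling. The count of 12 became 6 without array 2 of WT_vehicle or array 1 of aERKO_vehicle, 7 without array 2 of aERKO_DES, and 22 without array 1 of WT_DES. In those fits, in that order, lower calls over all genes numbered 1055, 1331, 1198 and 1960.

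With vehicle, aERKO and WT did not differ past the threshold in any of the 40 genes (limma, 0 with an unadjusted p below 0.05). Over all genes 0.00995% were higher and 0.0149% lower in aERKO, and 864 had an unadjusted p below 0.05. The median of the 40 was -0.0046. Given DES, 27 of the 40 were higher in aERKO than in WT and Xbp1 was lower (-0.23), against 27.5% and 24.6% of all genes, with a median of 0.38. This comparison uses the same WT_DES arrays as the one within WT. Derl3 was higher by 1.60 ± 0.21 (limma adjusted p = 8.44e-05), and Hspa5 (0.38), Herpud1 (0.69) and Syvn1 (0.56) passed here although they had not passed within WT. Ssr2 (0.19), Spcs1 (0.18) and Edem1 (0.21) had passed within WT and did not pass here. The count of 27 was 5 with hybridization-control scaling, while higher calls over all genes went from 5529 to 553.

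Other genes of the secretory pathway, from lists that do not overlap the 40, were mostly lower in WT_DES too. The counts below stand beside 23.3% of all genes that fell and 20.7% that rose. The median of all genes was -0.05 as deposited and 0.31 with hybridization-control scaling. For N-glycosylation 15 of 17 fell, with a median of -0.40 (-0.05 with hybridization-control scaling). They included Dpagt1 (-0.83 ± 0.15), the first enzyme of the lipid-linked sugar, and the oligosaccharyltransferase subunits Magt1 (-0.68 ± 0.12) and Stt3b (-0.65 ± 0.10). For oxidative and other folding 12 of 18 fell and 2 rose (median -0.36), led by the prolyl isomerase Fkbp11 (-1.24 ± 0.17), the disulfide oxidase Ero1b (-1.21 ± 0.13) and the BiP exchange factor Sil1 (-0.80 ± 0.11). Signal recognition and targeting genes fell in 8 of 10 cases and rose in 1 (median -0.47), with the receptor subunit Srpr at -0.73 and Srp68 at -0.71. The riser was Tram2, at 1.19 ± 0.10, from 7.11 to 8.29. Transport from ER to Golgi showed 16 of 23 lower and 0 higher (median -0.36), among them Tmed3 (-0.88), Mcfd2 (-0.67) and the retrieval receptor Kdelr3 (-0.59).

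Further degradation genes fell in 5 of 12 cases (median -0.19, or 0.17 with hybridization-control scaling), where 23.3% of all genes fell. The median of all genes was 0.31 with that scaling. As deposited, Edem3 was at -0.88, Edem2 at -0.77 and Selenos at -0.71. Outputs of the stress response were divided, 10 of 16 lower and 2 higher (median -0.25, or 0.11 with hybridization-control scaling). Nupr1, a stress-induced chromatin protein, rose by 2.22 ± 0.17 and the cystine carrier Slc7a11 by 1.55 ± 0.14, while asparagine synthetase (Asns) fell by 1.19 ± 0.20. Heat shock genes outside the ER had a median of the opposite sign, 0.23, with 2 of 8 higher, 1 lower and 5 not called. The share higher over all genes was 20.7%. The 8 are mostly cytosolic but include Hspd1 and Hspe1, whose products are mitochondrial. In aERKO the median of the 8 was 0.11. The median difference between the responses of WT and aERKO was 0.03, with 0 called. Hspa8, the constitutive cytosolic HSP70, rose by 0.53 ± 0.10 and Hspa1a by 0.36 ± 0.08, both of them genes with near-identical copies, and Bag3 fell by 0.27 ± 0.07. The lists were not tested against each other.

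**Figure D4:**
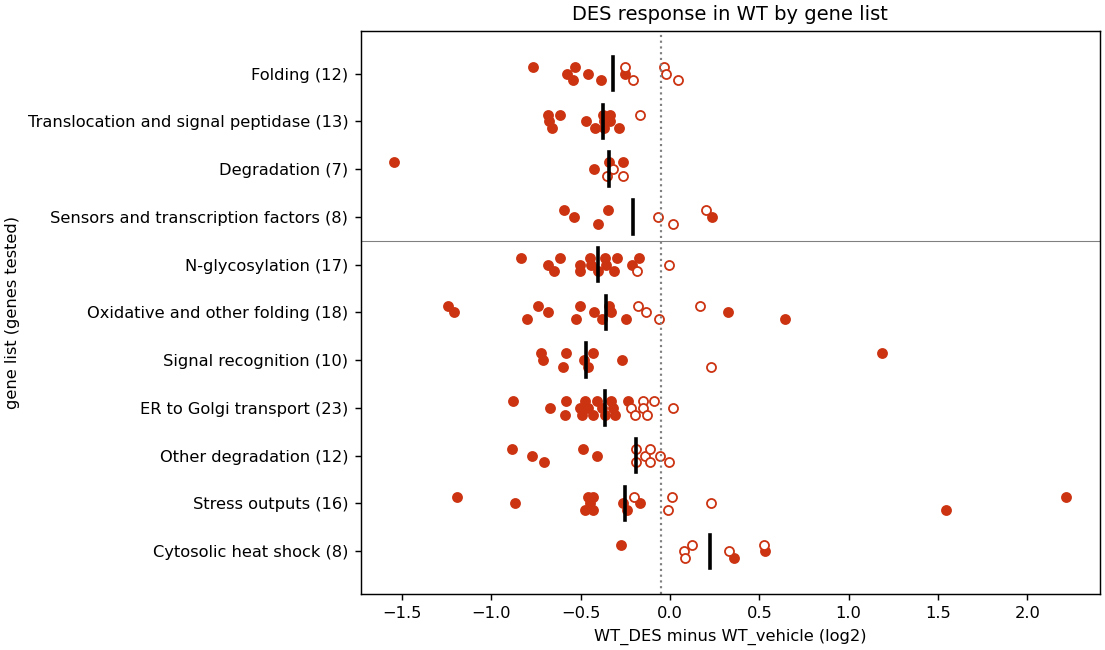
Difference between WT_DES and WT_vehicle (log2) for each gene tested in the 4 ER roles (above the grey line) and in 7 other lists, with the number of genes in parentheses. Filled points were called, black ticks are list medians and the dotted line is the median of all genes (-0.05). As deposited, 10 of the 11 medians are below 0 and that of the list labelled cytosolic heat shock is 0.23. That list also holds Hspd1 and Hspe1, whose products are mitochondrial. With hybridization-control scaling folding, degradation, sensors, other degradation and stress outputs have medians above 0. The median of all genes tested is then 0.31.

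Markers of other cell types moved in the same samples, and their part in these results was not tested. In bulk RNA, fewer cells of a type and less RNA per cell cannot be told apart. Of all genes tested in WT, 23.3% were lower and 20.7% higher after DES. Their median difference was -0.05 as deposited and 0.31 with hybridization-control scaling. Seminal vesicle markers, which are secretory products except for Pax8, averaged 13.22 to 13.25 in WT_vehicle and 12.86 to 13.14 in WT_DES. Of these 12, 7 fell, with a list median of -0.25 (0.11 with hybridization-control scaling). Svs5 averaged 14.12 in WT_vehicle and 14.11 in WT_DES, where the highest value on any array was 14.54. Whether differences are compressed so near the top of the scale was not tested. General luminal epithelial markers averaged 10.19 to 10.23 and 10.28 to 10.31, with 5 of 9 higher and 3 lower. Smooth muscle markers averaged 11.03 to 11.15 and 10.52 to 10.75, with 7 of 8 lower. With hybridization-control scaling 0 of these 8 were lower, as were 350 of all 20102 genes. Fibroblast markers averaged 8.67 to 9.06 and 10.54 to 11.05, and all 7 were higher. Macrophage markers averaged 7.64 to 7.89 and 9.92 to 10.33, with all 10 higher, and neutrophil markers 5.67 to 5.74 and 8.32 to 8.78, with 6 of 8 higher. Plasma and B cell markers averaged 6.22 to 6.26 and 7.48 to 7.84, and 9 of 10 were higher, among them Jchain (3.76 ± 0.16), Ms4a1 (2.85 ± 0.08) and the ER chaperone Mzb1 (1.37 ± 0.12). Plasma cells themselves express many ER genes. Of 2 erythroid markers tested 1 was lower. In aERKO 0 genes of any marker list were called after DES.

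The size of the fall in WT depended on how the arrays were put on one scale. The quantile, 75th percentile, tested-gene median and named-gene median scalings gave 34, 31, 31 and 25 lower genes with 0 higher. Of all 20102 genes tested, these scalings called 7131, 6997, 7115 and 5283 lower. Setting all arrays to the same median over all probe sets gave 15 lower and 1 higher, and over all genes 2673 lower and 4566 higher. Scaling to the 4 hybridization controls, added RNAs that averaged 11.74 in WT_vehicle and 11.38 in WT_DES, gave 2 lower and 3 higher. Over all genes tested it called 350 lower and 8345 higher. Other control probe sets were lower on the WT_DES arrays as well, the background controls at 4.87 against 5.31 in WT_vehicle and the poly-A controls at 6.68 against 7.45, and their part in the results was not tested. In aERKO the background controls were at 5.33 with vehicle and 5.28 with DES, and the poly-A controls at 7.23 and 6.99. The 2 lower genes were Derl3 (-1.19) and Sdf2l1 (-0.41), and the 3 higher were Xbp1 (0.59), Creb3l1 (0.56) and Hsp90b1 (0.40). That scaling moved the median of all genes to 0.31 and the median of the 40 to -0.0032, while the ER median relative to all genes stayed at -0.31, as it does under any shift of whole arrays. With quantile normalization that relative median was -0.41.

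**Figure D5:**
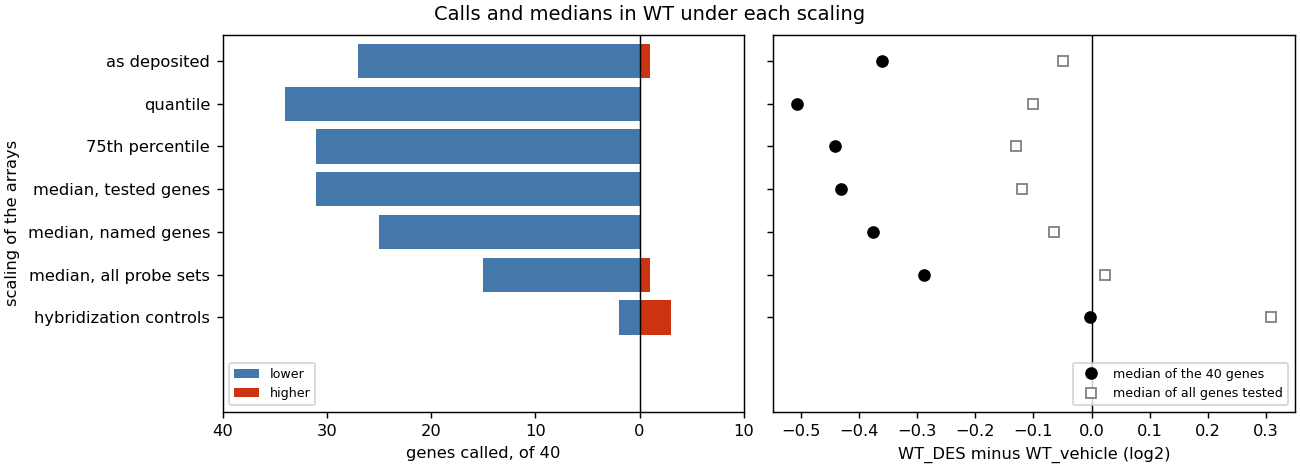
Left, number of the 40 ER genes called lower (blue, drawn to the left of 0) and higher (red) in WT_DES under 7 scalings. Right, the median difference (log2) of the 40 genes (filled) and of all genes tested (open). Calls of lower genes run from 34 with quantile normalization to 2 with hybridization controls, where the medians are -0.0032 and 0.31. Over all 20102 genes tested, these scalings called 7131 and 350 lower.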

How the data were processed

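Each deposited value is the log2 level of a probe set. The authors computed it by RMA using Affymetrix Expression Console, according to the submitters' processing notes, and no version or genome build is given in the sources used here. Per the labels' protocols, 300 ng of total RNA extracted with Trizol was amplified and biotin-labelled. RMA includes a normalization between arrays, so a change in total RNA per sample cannot be read from these values; the deposited arrays still differed in their medians (5.95 to 6.14). Of 72688 probe sets, 30604 carried 1 symbol in the platform annotation, 2146 several and 39938 none. In all, 1135 symbols were updated through RefSeq (GRCm38.p6). The probe set with the highest mean represented a gene (429 of 30063 genes had several). Genes above the array median on at least 3 of the 12 arrays were tested, 20102 in all. Groups came from the sample titles. limma 3.58.1 (R 4.3.3) fitted 1 mean per group over all 12 arrays, with 5 two-sided contrasts, empirical Bayes moderation and Benjamini-Hochberg adjustment over all genes tested, threshold 0.05. The fit was tested on simulated data.

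The members and lists were chosen with earlier results of these data known. Any of the 43 genes could be named; of other lists, up to 3 members with the largest called difference in WT were named, plus marker genes and Esr1. The 13 other settings tried covered filters, probe set averaging, moderation, array weights, scaling, a replicate block, a fold minimum and leaving out each array, and 2 scalings (medians of all probe sets and of tested genes) were added after seeing the data. The number of arrays, 3 a group, limits the precision.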

Additional observations from a re-analysis of the deposited data

Results flagged for a closer look

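For 12 ER genes the DES response in WT differed from that in aERKO by the direct limma test of the difference. Of all 20102 genes tested, 9.16% were called lower and 14.1% higher in this test. The differences in response (WT minus aERKO, log2) were -0.74 for Sdf2l1, -0.63 for Dnajb9, -0.67 for Hyou1, -0.44 for Sec61a1, -0.60 for Sec61b and -0.60 for Ssr4. They were -0.53 for Sec11c, -1.48 for Derl3, -0.55 for Sel1l, -0.51 for Atf6, -0.50 for Ern1 and -0.42 for Eif2ak3. With 1 of the 12 arrays left out in turn, Sel1l and Atf6 passed in 3 fits, Sec11c in 4 and Eif2ak3 in 6. With hybridization-control scaling Derl3 alone of the 40 passed, at -1.25. Over all 20102 genes tested, 133 were then called lower and 2806 higher.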

How the results depend on the processing

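Counts are of the 40 ER genes unless all genes are named. With hybridization controls, lower calls over all 20102 genes were 350 in WT and 133 for the difference between responses. The median over all genes was then 0.31 in WT, 0.12 in aERKO and 0.19 for the difference between responses. With the same scaling, higher calls over all genes were 553 for aERKO against WT given DES. In WT, the single higher gene was lost (0 higher) without a filter, with the 2 groups compared alone, with quantile, named-gene median, 75th percentile and tested-gene median scaling, and with a 1.5-fold minimum, and 3 were higher with hybridization controls. The lower count was 2 with hybridization controls, 15 with the median of all probe sets and 7 with the 1.5-fold minimum, and the median was -0.0032 with hybridization controls. Leaving out 1 array gave 0 to 1 higher, 16 to 31 lower and medians of -0.46 to -0.26. In aERKO the median was 0.0531 with array weights and 0.1053 with hybridization controls. For the difference between responses, array weights, whose estimation stopped short of its tolerance, gave 1 higher and 20 lower. Over all genes that fit called 3996 higher and 4168 lower. The lower count of ER genes was 31 with quantile, 26 with 75th percentile, 21 with tested-gene median, 6 with named-gene median, 5 with all-probe-set median and 1 with hybridization-control scaling, and 6 with the 1.5-fold minimum. Over all genes, lower calls under these scalings were, in that order, 4280, 3838, 3834, 1794, 736 and 133, against 1841 as deposited. The ER median of this difference was -0.5462 with quantile and -0.1336 with hybridization-control scaling. Leaving out 1 array gave 0 to 1 ER genes higher and 6 to 22 lower. For aERKO against WT given DES, the lower count was 0 with the 2 groups alone, quantile, named-gene median, 75th percentile, tested-gene median and the 1.5-fold minimum. The higher count was 5 with hybridization controls, 14 with the all-probe-set median and 7 with the 1.5-fold minimum, the median was 0.6061 with quantile and 0.1607 with hybridization controls, and leaving out 1 array gave 22 to 30 higher and 0 to 1 lower. Over all genes, higher calls in this comparison were 5529 as deposited and 3191 with the all-probe-set median. With hybridization controls the WT differences of Calr (0.10), Ssr2 (0.0205), Spcs1 (0.0195), Sec11a (0.0742), Derl2 (0.0165), Edem1 (0.10) and Atf4 (0.0082) turned positive, and with quantile normalization that of Xbp1 in aERKO against WT given DES was 0.0349. Fitting a replicate block gave 28 lower and 1 higher in WT and 18 lower for the difference between responses. All 12 genes called without the block were among the 18. Over all genes, lower calls with the block were 5486 in WT and 2705 for the difference between responses. Deviations of same-numbered arrays correlated between -0.04 and 0.08 for WT_vehicle and WT_DES, between 0.0998 and 0.46 for WT_DES and aERKO_DES, and between -0.36 and 0.52 for aERKO_vehicle and aERKO_DES. No label says that the numbers pair samples and not every pair exceeded 0.1, so the fit without the block is reported. The cause of these changes was not tested.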
